A study of Mus musculus with 9 samples.

Results

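The miR-196 family is a pair of microRNAs (miRNAs), miR-196a-5p and miR-196b-5p, whose genes lie inside the Hox clusters. Its members were taken by name, as every entry of the deposited table that begins with miR-196a or miR-196b, which gave 2 of the 358 listed miRNAs. Small RNA was sequenced from epididymosomes, the extracellular vesicles of the epididymal lumen, collected from the caput (proximal), corpus (middle) and cauda (distal) epididymis of untreated male Swiss mice aged 8 weeks. There were 3 libraries per segment and 9 in all, and each library was made from RNA pooled from several mice, so that replicates are pools and not single animals. Levels are given as CPM, in which the reads counted on each miRNA are divided by the total of its library and brought to a common depth. The libraries held between 1548581 and 11306605 reads on miRNAs, and the caput libraries were the deepest as a group, with a median of 8453380 reads against medians of 2553385 for the corpus and 2184582 for the cauda.

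The Hox genes encode the transcription factors that specify position along the body axis, and several are also expressed along the epididymal duct. The miR-196 genes sit among the posterior Hox genes of their clusters, and their mature miRNAs repress Hox messenger RNAs, of which Hoxb8 is the best known because its near-perfect match to miR-196a leads to cleavage rather than to ordinary repression. A miRNA finds its targets mainly through the seed, the bases next to its 5′ end. Another miRNA family of the Hox clusters, miR-10, lies nearer to the anterior Hox genes and also acts on Hox messenger RNAs.

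The mature sequences are shown because the members are so alike that the table must separate them by a single base. In the first 4 lines the capitals mark the seed, bases 2 to 8. In let-7a-5p they mark the same 7 letters where they stand at bases 3 to 9. All are RefSeq sequences, 5′ to 3′.

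miR-196a-5p: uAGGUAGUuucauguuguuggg

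miR-196b-5p: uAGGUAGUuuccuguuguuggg

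miR-10a-5p: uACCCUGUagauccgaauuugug

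miR-10b-5p: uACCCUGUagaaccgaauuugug

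let-7a-5p: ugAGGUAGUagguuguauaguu

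The members had the same length of 22 bases and were identical at 21 of them, including the whole seed. The only difference was A12C, with miR-196a-5p as the reference and positions counted from 1 at the 5′ end. A read that ended before base 12, or that carried a sequencing error there, could not be given safely to either member. Of the 358 listed names, 299 could be matched to a RefSeq mature sequence, and the miR-196 pair were the only 2 of these (0.669%) with AGGUAGU as their seed. The same letters stood at bases 3 to 9 in 8 others, which were let-7a, b, c, d, f, g and i and miR-98-5p, and nowhere else in a matched sequence. These let-7 miRNAs thus carry the miR-196 seed letters shifted by 1 base, and let-7e-5p, whose sequence was also matched, does not. The let-7 guide strands with miR-98-5p serve below as a comparison list.

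The family is produced from 3 hairpins, shown because the same mature miR-196a-5p is cut from a pair of them. Capitals mark the mature sequence within each RefSeq hairpin.

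Mir196a-1: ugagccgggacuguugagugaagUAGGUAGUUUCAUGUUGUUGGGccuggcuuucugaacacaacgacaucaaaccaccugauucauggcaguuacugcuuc

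Mir196a-2: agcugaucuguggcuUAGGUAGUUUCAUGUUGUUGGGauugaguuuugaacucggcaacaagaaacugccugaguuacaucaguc

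Mir196b: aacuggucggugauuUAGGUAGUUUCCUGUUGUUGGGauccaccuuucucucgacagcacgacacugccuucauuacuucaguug

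Mir196a-1 lies on the forward strand of the Hoxb cluster at chr11:96265164-96265265 of GRCm38, in no annotated Hox transcript and 6191 bases upstream of Hoxb9. Mir196a-2 lies on the forward strand of the Hoxc cluster at chr15:102973350-102973434, 1456 bases after Hoxc10 and 3004 bases before Hoxc9, within an intron of a noncoding Hoxc5 transcript. Mir196b lies on the reverse strand of the Hoxa cluster at chr6:52230081-52230165, inside exons of 2 noncoding Hoxa9 transcripts and 1031 bases from Hoxa10. All 3 hairpins therefore stood beside group 9 Hox genes and on the same strand as them. Because Mir196a-1 and Mir196a-2 give an identical mature miRNA, their contributions to the level of miR-196a-5p cannot be told apart in these data. The opposite arms of these hairpins were not analysed here.

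**Figure D1:**
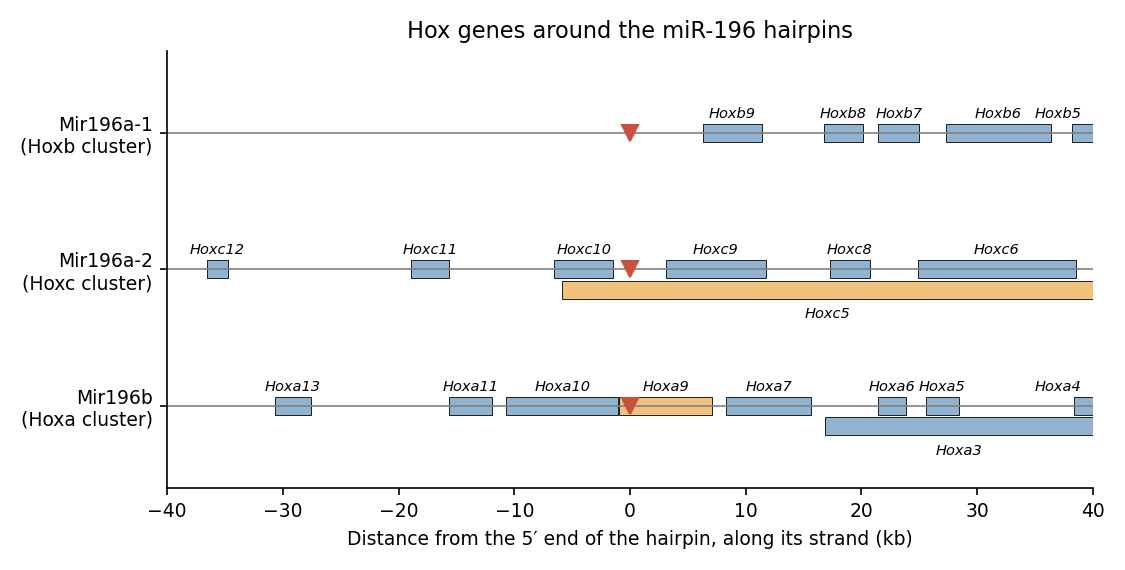
Positions of the 3 miR-196 hairpins (red triangles) among the annotated Hox genes within 40 kb, drawn to scale with the horizontal axis in kb from the 5′ end of each hairpin and running along its strand. Boxes are whole gene loci (orange where the locus spans the hairpin, blue otherwise), and loci longer than 40 kb are drawn below the line; each hairpin is seen next to or inside the locus of a group 9 Hox gene.

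The site below, from the 3′ untranslated region of Hoxb8 (chr11:96284888-96284909 of GRCm38, forward strand, 418 bases after the stop codon), is the textbook target of the family and shows what the single base difference does to the match. Capitals mark the bases opposite the seed.

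Hoxb8: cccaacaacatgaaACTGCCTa

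miR-196a-5p could pair with this stretch at 21 of its 22 bases, with a G:U wobble at base 5 and no mismatch. miR-196b-5p could pair at 20 bases, with the same wobble and 1 mismatch. Among 63 protein-coding transcripts of 39 Hox genes, no gene other than Hoxb8 had a stretch with more than 15 paired bases to miR-196a-5p. This is a match of letters in the reference, and Hoxb8 messenger RNA was not measured in the libraries.

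Both members were scarce in caput epididymosomes, well represented in corpus epididymosomes and highest in cauda epididymosomes. In the caput, miR-196a-5p was measured at 7.25, 2.42 and 6.39 CPM in replicates 1 to 3, from 82, 20 and 54 reads. In the corpus its level was 97.9, 58.4 and 91.1 CPM, from 606, 149 and 141 reads. In the cauda it was 433, 397 and 155 CPM, from 867, 868 and 913 reads. Every corpus library thus lay above every caput library and every cauda library above every corpus library, with cauda replicate 3 well below its companions. The segment means of miR-196a-5p were 5.35 ± 2.58, 82.4 ± 21.1 and 328 ± 151 CPM (SD, n = 3 each).

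miR-196b-5p followed the same order. Its caput levels were 7.61, 2.90 and 10.8 CPM, from 86, 24 and 91 reads. Its corpus levels were 100.5, 83.0 and 98.2 CPM, from 622, 212 and 152 reads. Its cauda levels were 1280.3, 1194 and 663 CPM, from 2562, 2609 and 3910 reads. Again no segment overlapped another, caput replicate 2 was the lowest library of all, and cauda replicate 3 was the lowest of its segment. The segment means of miR-196b-5p were 7.09 ± 3.96, 93.9 ± 9.48 and 1046 ± 334 CPM (SD, n = 3 each). The replicates were tightest in the corpus, where the SD was 10.1% of the mean, against 55.8% in the caput and 32.0% in the cauda.

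**Figure D2:**
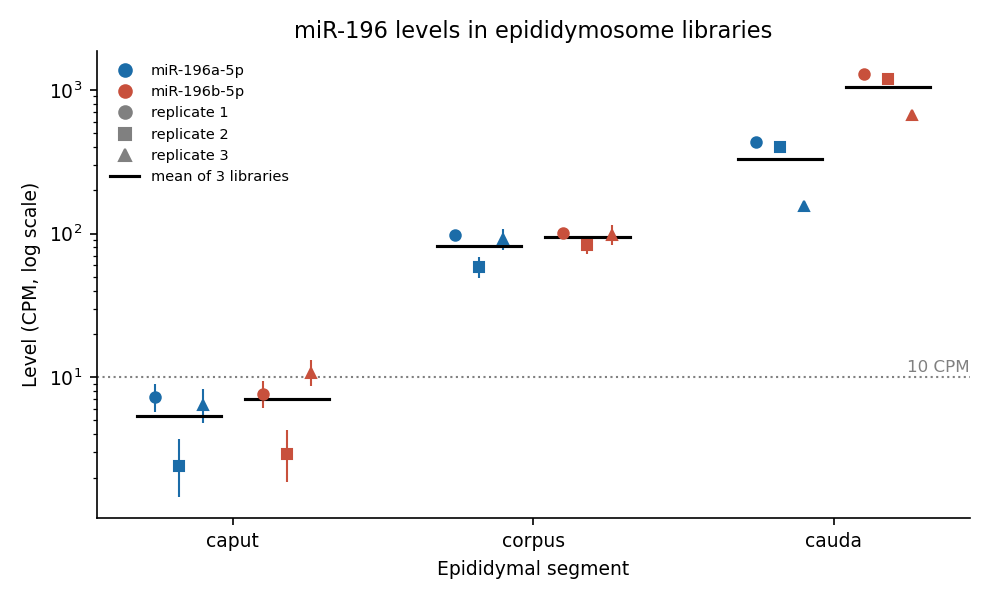
Level of miR-196a-5p (blue) and miR-196b-5p (red) in each of the 9 libraries, in CPM on a log axis, with marker shape for the replicate, exact 95% Poisson intervals for counting error as thin bars and the mean of 3 libraries as a black line. Both members rise from under 11 CPM in every caput library to between 58.4 and 100.5 CPM in the corpus, and in the cauda miR-196b-5p (663 to 1280.3 CPM) stands above miR-196a-5p (155 to 433 CPM).

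Ranked by mean level among the 358 listed miRNAs, miR-196a-5p moved from place 317 in the caput to 154 in the corpus and 92 in the cauda. miR-196b-5p moved from place 297 to 147 and then to 56. The pair together made up 0.00124% of the miRNA reads of the caput, 0.0176% of those of the corpus and 0.137% of those of the cauda. Even at their highest, therefore, they were a minor part of the vesicle cargo. The levels are shares of bulk RNA, in which fewer vesicles carrying a miRNA and less of it per vesicle cannot be told apart.

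Differential accumulation between segments was tested with limma on log2(CPM + 1), a scale that understates the change of low miRNAs. A miRNA was called where the Benjamini-Hochberg adjusted p was under 0.05 over all miRNAs tested and the fold change was at least 2. Both members averaged under 10 CPM in the caput, so that they entered the comparisons with the caput only through the level of the other segment.

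Between the caput and the corpus both members were called higher in the corpus, as were 19.0% of the 321 miRNAs tested. The log2 fold change was 3.78 for miR-196a-5p (standard error 0.49, limma adjusted p = 4.9e-05) and 3.69 for miR-196b-5p (standard error 0.46, limma adjusted p = 4.3e-05). On this scale these were the second and the third largest rises of the 321, against a median log2 fold change of 0.47. In CPM the means differed 15.4-fold for miR-196a-5p and 13.2-fold for miR-196b-5p, and with a pseudocount of 10 CPM the log2 fold changes were 2.58 and 2.63. Libraries that did not overlap and were higher in the corpus were found for 29.3% of the miRNAs tested.

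Between the corpus and the cauda both members were called higher in the cauda, as were 14.0% of the 342 miRNAs tested, but here they moved by different amounts. miR-196b-5p had a log2 fold change of 3.41 (standard error 0.47, limma adjusted p = 7.3e-05) and the seventh largest rise. miR-196a-5p had a log2 fold change of 1.88 (standard error 0.50, limma adjusted p = 0.016) and place 28 in that order. The means in CPM differed 11.1-fold and 3.98-fold, and the median log2 fold change of all miRNAs tested was 0.18. Libraries that did not overlap and were higher in the cauda made up 30.1% of those tested.

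The call of miR-196a-5p in this step depended on single libraries. It was lost without corpus replicate 2 (log2 fold change 1.65, limma adjusted p = 0.078), without cauda replicate 1 (1.61, limma adjusted p = 0.080) and without cauda replicate 2 (1.68, limma adjusted p = 0.082). Without cauda replicate 3, in which both members were lowest, the log2 fold change was 2.35 (limma adjusted p = 0.0056). The direction was the same under every alternative run, and the call of miR-196b-5p was kept under every one.

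Across the whole duct, from caput to cauda, both members were called higher in the cauda, as were 39.0% of the 349 miRNAs tested. On log2(CPM + 1) miR-196b-5p had the largest and miR-196a-5p the second largest rise. The log2 fold change was 7.10 for miR-196b-5p (standard error 0.47, 95% interval 6.11 to 8.08, limma adjusted p = 5.2e-09). It was 5.66 for miR-196a-5p (standard error 0.50, 95% interval 4.61 to 6.72, limma adjusted p = 1.9e-07). This order depends on the pseudocount, which holds back miRNAs near 0 in the caput. miR-208b-3p of striated muscle, named here after its values were seen, was counted with 0, 2 and 1 reads per caput library and with 59, 80 and 163 per cauda library. Its log2 fold change was 4.84, in place 4, with 1 CPM added. With 0.1 CPM added it was first at 7.32, miR-196b-5p was second at 7.31 and miR-196a-5p was in place 6. With limma-voom on the recovered reads miR-208b-3p was first at 7.86, and the members were in places 3 and 7. The median over all miRNAs tested was 0.81, and libraries that did not overlap and were higher in the cauda were found for 42.4% of them. In CPM the means differed 148-fold for miR-196b-5p and 61.4-fold for miR-196a-5p. This comparison uses the same libraries as the single steps and is not independent of them.

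**Figure D3:**
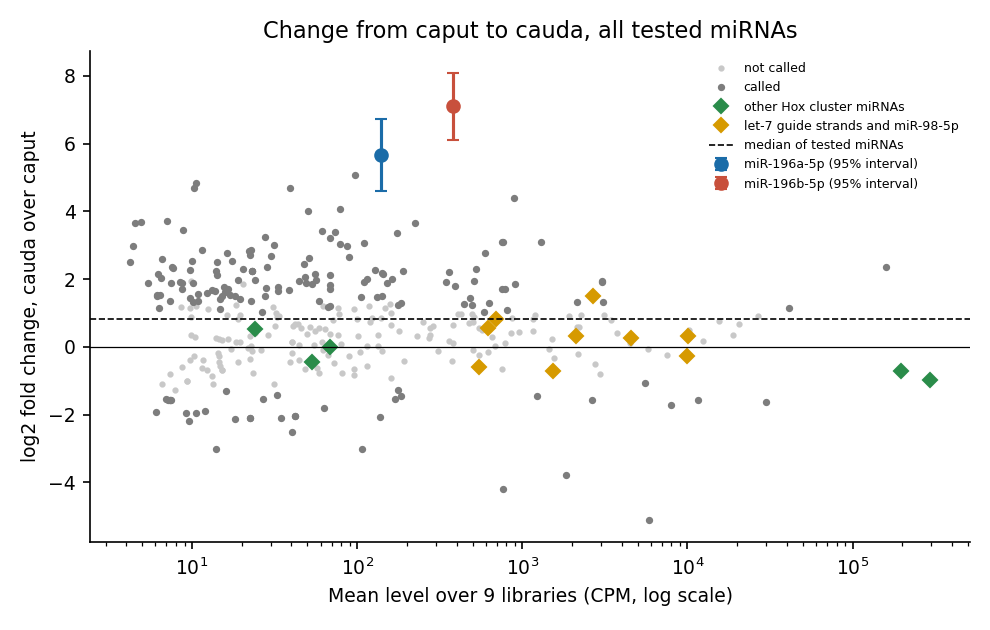
log2 fold change from caput to cauda on log2(CPM + 1) for the 349 miRNAs tested, against the mean level over 9 libraries in CPM on a log axis. Dark grey points were called and light grey points were not, the dashed line is the median of 0.81, and the miR-196 pair, with 95% intervals, stand highest on this scale at 5.66 and 7.10, whereas the other Hox cluster miRNAs (green) lie between -0.96 and 0.52 and the let-7 guide strands with miR-98-5p (yellow) between -0.71 and 1.49.

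The caput libraries differed among themselves. The family was lowest in caput replicate 2, at 5.32 CPM, against 14.9 and 17.2 CPM in replicates 1 and 3. miR-10a-5p and miR-10b-5p took 63.2%, 71.3% and 50.5% of the reads in replicates 1 to 3. Without caput replicate 2 the log2 fold change from caput to cauda was 6.64 for miR-196b-5p (limma adjusted p = 8.8e-07) and 5.26 for miR-196a-5p (limma adjusted p = 2.8e-05). Without caput replicate 3 these were 7.44 and 5.82. Scaling moved the sizes as well. With TMM normalisation, which sets the libraries level by their typical miRNA rather than their total, the caput levels of miR-196a-5p became 9.63, 5.06 and 5.49, and its log2 fold change from caput to cauda became 5.07 (limma adjusted p = 7.3e-06). That of miR-196b-5p became 6.50 (limma adjusted p = 1.6e-07), and the median of all miRNAs tested moved from 0.81 to 0.13. With a pseudocount of 10 CPM the log2 fold changes were 4.35 and 5.92.

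Whether the rise in the second step differed from that in the first was tested as a contrast of its own over all 358 miRNAs, of which 6.15% passed. Neither member did. The second step was smaller by 1.90 on the log2 scale for miR-196a-5p (95% interval -3.73 to -0.07, limma adjusted p = 0.21). The value for miR-196b-5p was -0.28 (95% interval -1.98 to 1.43, limma adjusted p = 0.86), and its sign changed under several alternatives. The intervals are wide, and the test does not show that the steps were equal.

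The balance between the members was examined within each library, where it does not depend on how libraries are scaled. miR-196b-5p made up 51.2%, 54.5% and 62.8% of the family reads in the 3 caput libraries. The Wilson 95% intervals of these shares ran from 43.7% to 58.6%, from 40.1% to 68.3% and from 54.7% to 70.2%. In the corpus the share was 50.7% (47.9% to 53.4%), 58.7% (53.6% to 63.7%) and 51.9% (46.2% to 57.5%). In the cauda it was 74.7% (73.2% to 76.1%), 75.0% (73.6% to 76.4%) and 81.1% (79.9% to 82.2%). The caput and corpus libraries overlapped, close to equal shares, and all 3 cauda libraries lay above all 6 others.

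As a ratio of CPM with 0.5 added to each, miR-196b-5p stood to miR-196a-5p at 0.33 ± 0.34 on the log2 scale in caput, 0.22 ± 0.25 in corpus and 1.75 ± 0.30 in cauda libraries (SD, n = 3 each). The cauda ratio was 2.67 times that of the caput. The 3 segments differed in an exact permutation test of the F statistic over the 280 divisions of the 9 libraries (2-sided p = 0.0214, and 0.0214 after Benjamini-Hochberg adjustment over 3 ratios). With the permutation kept within replicate numbers the adjusted p was 0.0833, in a test whose smallest possible p was 0.0278. Between single segments 3 libraries against 3 cannot give an exact p below 0.1, which was the value for the cauda against the caput and against the corpus, whereas the corpus against the caput gave 0.6. The intervals of the shares cover counting error only, and the share of reads placed with the wrong member was not tested.

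**Figure D4:**
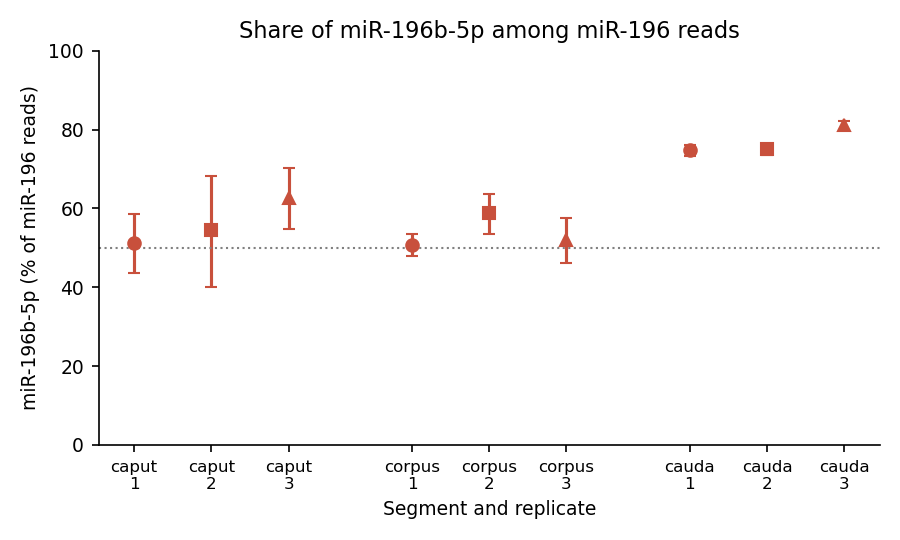
Share of miR-196b-5p among the reads of both members in each library, in percent, with Wilson 95% intervals for counting error and a dotted line at equal shares. The caput and corpus libraries lie between 50.7% and 62.8%, and the cauda libraries between 74.7% and 81.1%.

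The other miRNAs of the Hox clusters did not pass the test beside miR-196. The list held miR-10a-5p of the Hoxb cluster, miR-10b-5p of the Hoxd cluster, their opposite arms and the arms of miR-615 of the Hoxc cluster, and 5 of its 6 members were listed. None of the 5 was called in any comparison, against 21.8%, 19.0% and 49.3% of all miRNAs tested that were called in either direction from caput to corpus, corpus to cauda and caput to cauda. Their median log2 fold change from caput to cauda was -0.46 (range -0.96 to 0.52), against 0.81 over all miRNAs tested. miR-10b-5p averaged 371443 ± 69375 CPM in caput, 321396 ± 5053 in corpus and 188244 ± 9442 in cauda libraries (SD, n = 3 each). Its log2 fold change from caput to cauda was -0.96, which passed the p threshold (limma adjusted p = 1.7e-04) but not the threshold on the fold. For miR-10a-5p the value was -0.71 (limma adjusted p = 0.0023). With TMM normalisation both, and miR-10b-3p, were called lower in the cauda, at -1.64, -1.39 and -1.12. Under that scaling 159 of the 349 miRNAs tested from caput to cauda were called. This total counts both directions and does not give the share called lower. The sign of miR-615-3p changed with the scaling, from 0.52 with CPM to -0.12 with TMM, and it was called under neither.

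Mir10a and Mir196a-1 lie in the same Hoxb cluster, Mir10a at chr11:96317165-96317274 and 992 bases before Hoxb4. Within each caput library miR-10a-5p had 34258, 115437 and 32520 times the CPM of miR-196a-5p. In the corpus this was 2131, 3389 and 1953 times, and in the cauda 345, 378 and 941 times. The 3 segments did not overlap. On the log2 scale with 0.5 CPM added, the ratio of miR-196a-5p to miR-10a-5p exceeded that of the caput by 6.51 in the cauda. The segments differed in the exact permutation test (2-sided p = 0.00357, the smallest that the 280 divisions can give, adjusted p = 0.00536). miR-196a-5p is also encoded by Mir196a-2 in the Hoxc cluster, so this ratio does not compare neighbours alone.

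The ratio of miR-196b-5p to miR-10b-5p rose in the same order. miR-10b-5p had 50425, 149620 and 27572 times the CPM of miR-196b-5p in the caput libraries. This fell to 3219, 3802 and 3312 times in the corpus and to 142, 154 and 300.2 times in the cauda. The log2 ratio of the cauda exceeded that of the caput by 8.18, or by 7.56 without caput replicate 2. The exact permutation test gave a 2-sided p of 0.00357 and an adjusted p of 0.00536, again the smallest possible p. The change in these ratios joins the rise of miR-196 to a lower share of miR-10, which was much the smaller of the 2 changes on the log2 scale.

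The let-7 family suppresses growth and stem cell programmes. The list fixed for it held the guide strands let-7a, b, c, d, e, f, g and i and miR-98-5p, of which 8 hold the shifted seed letters, and left out let-7j and the passenger strands. All 9 were tested, and their median log2 fold change was 0.50 from caput to corpus, -0.10 from corpus to cauda and 0.32 from caput to cauda. The medians over all miRNAs tested were 0.47, 0.18 and 0.81. Of these 9, let-7i-5p was called, above its caput level both in the corpus (1.18, limma adjusted p = 0.024) and in the cauda (1.49, limma adjusted p = 0.0022). With TMM normalisation let-7i-5p was not called (0.81 from caput to cauda), and 2 of the list were called lower in cauda than in caput libraries. In that comparison 159 of the 349 miRNAs tested were called in either direction. Summed over the 9, let-7 had 2271, 3369 and 2446 times the CPM of the miR-196 family in the caput libraries. In the corpus it had 166, 275 and 169 times as much. In the cauda the excess was 18.6, 22.4 and 37.5 times, with no overlap between segments. let-7 thus remained far more abundant than miR-196 in all 9 libraries, by a margin that narrowed from segment to segment.

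Among the other listed miRNAs, those whose levels ran most like the members over the 9 libraries were found by Pearson correlation of log2(CPM + 1), given as a description because the libraries share their segments and their scaling. miR-221-3p came first for both, with r = 0.988 for miR-196a-5p and 0.988 for miR-196b-5p. Its mean level was 305 CPM in caput, 1052 in corpus and 2516 in cauda libraries, a smaller rise from a higher start. The members came second for each other, with r = 0.980. For miR-196a-5p the next were miR-5121 (r = 0.969), miR-708-5p (0.943) and miR-465a-5p (0.943), a miRNA of germ cells. For miR-196b-5p they were miR-30a-3p (0.964), miR-5121 (0.954) and miR-143-3p (0.952), a miRNA of smooth muscle. Of these, miR-143-3p averaged 62956, 99958 and 315271 CPM from caput to cauda.

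Marker miRNAs of several cell types changed along the duct beside miR-196. Of the epithelial list, the miR-200 family with miR-141 and miR-205, all 6 members were listed. Their summed level ran from 21864 to 33624 CPM in the caput libraries, from 73871 to 85321 in the corpus and from 46003 to 62093 in the cauda. The epithelial sum was thus large in every segment and highest in the corpus, whereas miR-196 was highest in the cauda. The single markers did not move alike. From caput to corpus miR-141-3p (log2 fold change 1.88) and miR-200a-3p (1.20) were called higher. The rest of the list was not called, with miR-205-5p at 0.04 and miR-200b-3p at -0.67.

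The smooth muscle list (4 of 4 listed) ran from 50115 to 88995 CPM in the caput, from 88423 to 121412 in the corpus and from 291676 to 354786 in the cauda. Nearly all of this sum was miR-143-3p, with means of 62956 of 63596 CPM in the caput and 315271 of 318496 in the cauda. From caput to corpus its log2 fold change was 0.70. Those of miR-143-5p, miR-145a-5p and miR-145a-3p were -0.24, 0.09 and 0.36. The mesenchymal list (6 of 6) ran from 1595 to 4950, from 5546 to 8300 and from 7944 to 12182 CPM. The striated muscle list (5 of 7) ran from 55.5 to 197, from 121 to 167 and from 1412 to 4166 CPM. In the cauda the smooth muscle, striated muscle and red blood cell markers, like miR-196, were each lowest in replicate 3. The epithelial, mesenchymal, leukocyte and germ cell markers went the other way and were each highest in replicate 3. Between caput and corpus the ranges of the summed levels overlapped for the smooth muscle, striated muscle, red blood cell and leukocyte markers. Of the red blood cell list, miR-451a alone was called higher in the corpus (log2 fold change 2.29, limma adjusted p = 0.024). miR-486a-5p and miR-486b-5p, both at 0.45, were not called.

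The red blood cell list (5 of 7) ran from 223 to 848 CPM in the caput, from 390 to 1106 in the corpus and from 3030 to 4365 in the cauda. The leukocyte list (5 of 6) ran from 231 to 530, from 515 to 1149 and from 392 to 1601 CPM. The germ cell list (19 of 20) ran from 416 to 1147, from 1367 to 1476 and from 2634 to 3556 CPM. No listed marker was at 0 in all libraries.

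As means over the caput, the cauda stood 5.01 times higher for smooth muscle, 3.22 for mesenchyme, 21.5 for striated muscle, 7.37 for red blood cells, 2.41 for leukocytes and 3.68 for germ cells. The epithelial list stood 1.80 times higher. The summed miR-196 pair stood 110 times higher. In the corpus the pair stood 14.2 times above the caput. In that step the largest ratio of a marker sum was the 2.72 of the epithelial list. Single markers could differ from their sums. From caput to corpus the log2 fold changes of the germ cell markers tested ran from -0.36 (miR-34c-5p) to 2.68 (miR-881-3p). In the striated muscle list miR-208b-3p was at 0, 0.24 and 0.12 CPM in the caput libraries. In the cauda libraries it was at 29.5, 36.6 and 27.6 CPM. The part of these cell types in the level of miR-196 was not tested.

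**Figure D5:**
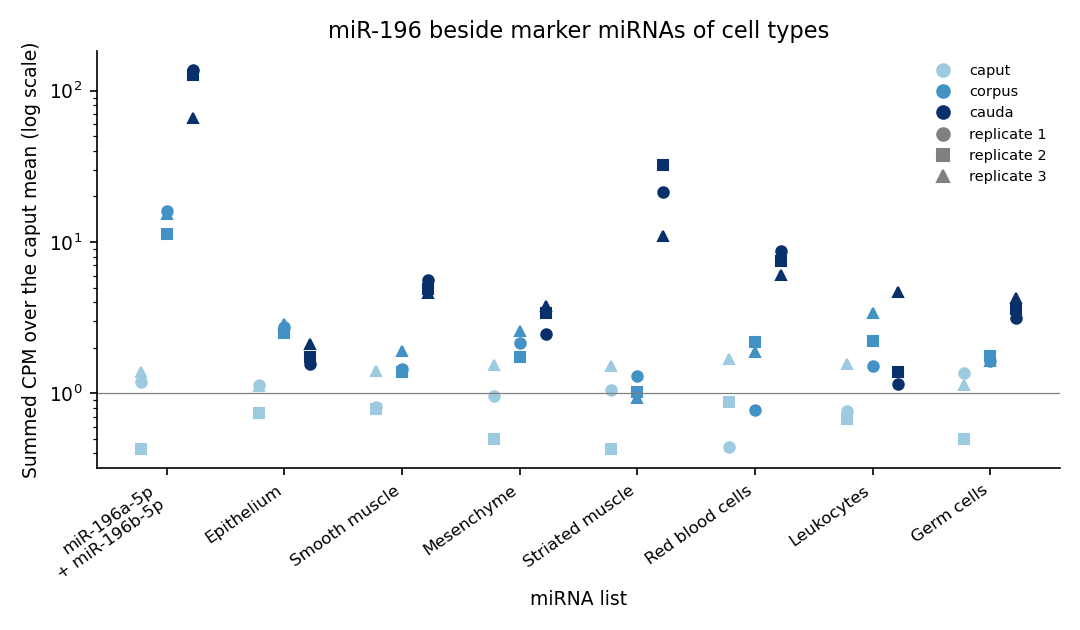
Summed CPM of the miR-196 pair and of 7 marker lists in each library, divided by the mean of the 3 caput libraries and drawn on a log axis, with shade for the segment and marker shape for the replicate. The miR-196 pair stand 14.2 times above the caput mean in the corpus and 110 times in the cauda as segment means. Among the summed marker lists the largest cauda mean is that of striated muscle at 21.5 times, and single members of a list are not drawn.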

How the data were processed

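Per the labels and the article, total RNA of purified epididymosomes was pooled from several mice per library, converted to TruSeq small RNA libraries and sequenced. The authors used CASAVA 1.8.2, trimmed the adapters, aligned with Bowtie 1.1.1 and counted reads on known mature miRNAs with miRDeep2. The deposited values are CPM scaled by library size, for 358 miRNAs in 9 libraries. The genome build and the miRBase release are not given in the sources used here. How reads shared by near-identical miRNAs were counted is not stated either.

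The members and lists were chosen with earlier results of these data known. Groups came from the sample labels. All CPM values (100%) were whole multiples of 1 read, within 0.05 reads, and totals and reads were taken from these steps. The table lists few low values, on which such steps are best checked, so that the reads and the intervals made from them are estimates. Levels were tested with limma 3.58.1 in R 4.3.3 (lmFit, eBayes with trend) on log2(CPM + 1) over all 9 libraries with segment as the only term, among miRNAs averaging 10 CPM or more in a compared segment. All 358 passed this in at least 1 segment. Ratios were tested by exact permutation in Python 3.11. The named miRNAs were the members, the other Hox cluster miRNAs, the let-7 guide strands with miR-98-5p and, for each member, the 5 with the highest correlation. Hairpins and Hox genes were placed with GENCODE M21 and RefSeq on GRCm38. Scripts were tested on simulated data. Replicates of a segment differed by more than sampling noise, and p-values measure the spread between pools. Poisson and Wilson intervals cover counting error only, whereas the intervals of the log2 fold changes come from the limma fit.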

Additional observations from a re-analysis of the deposited data

How the results depend on the processing

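Over 11 tested results, 178 of the 186 values under alternative settings kept the direction and the side of the threshold. The alternatives were TMM and median-of-ratios scaling, CPM without miR-10a-5p and miR-10b-5p, pseudocounts of 0.1 and 10 CPM, no filter or a stricter one, limma-voom on the recovered reads, a replicate block, only the segments compared, and each library left out. A planned quasi-likelihood test on the recovered reads was not run, because the table holds too few low values for a full check of the recovery. With single libraries left out, the log2 fold change of miR-196a-5p from corpus to cauda ran from 1.61 to 2.35, and the call was lost in 3 of the 9 fits. The difference between the steps of miR-196b-5p, which was not called, changed sign with TMM (0.12) and with a pseudocount of 10 (0.67), and ran from -0.62 to 0.18 with single libraries left out. The cause was not tested.

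Whether replicate numbers pair the libraries was not clear. Correlations of deviations between libraries of the same number ran from -0.21 to 0.41, with 6 of 9 over 0.1, and 10 of 18 best matches were with the own number. The libraries were not treated as pairs, since not every correlation was over 0.1. With the replicate block the miR-196b-5p to miR-196a-5p ratio kept its difference of 1.42 but had an adjusted p of 0.0833 in the exact permutation test. The block left every other call of a member as it was, with 85, 73 and 181 miRNAs called in the 3 comparisons against 70, 65 and 172 without it.

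From caput to corpus 46 miRNAs were called without corpus replicate 1. From corpus to cauda 39 were called without corpus replicate 1, 32 without corpus replicate 2, 37 without cauda replicate 1 and 40 without cauda replicate 2. limma-voom called 73, 46 and 173. The caput levels of both members rest on 20 to 91 reads per library, so that the size of the rise from the caput is less certain than its direction.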
